A study of Homo sapiens with 6 samples.

Results

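The genes described here encode the proteins of the cytosolic ribosome, the machine that makes nearly all cellular protein. Members were the rows of the deposited expression table whose symbol begins with RPL (large subunit) or RPS (small subunit) and a number, together with RPSA, RPLP0, RPLP1 and RPLP2. Symbols of ribosomal protein S6 kinases (RPS6K), antisense genes and pseudogenes were left out, and rows had to average 1 CPM or more across the 6 samples. CPM are read counts of a gene scaled to a common library size, here by the authors with the TMM method. The rule took 88 of the 13439 rows by symbol, and 86 of them passed the minimum, 52 RPL and 34 RPS. The rows just below it were RPL36A-HNRNPH2 (mean 0.292 CPM) and RPL3L (mean 0.0300 CPM), and the rows just above it were RPL17-C18orf32, RPS10-NUDT3 and RPL39L (means 4.31, 9.45 and 10.2 CPM). Of the 86 rows, 2 join a ribosomal protein gene to its neighbour (RPL17-C18orf32 and RPS10-NUDT3), and 6 are second copies of a ribosomal protein gene with a sequence of their own (RPL22L1, RPL26L1, RPL36AL, RPL39L, RPL7L1 and RPS27L). The other 78 rows, 46 RPL and 32 RPS, are called standard rows below.

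All 6 RNA-seq libraries came from Saos-2, an established human osteosarcoma line grown in medium with 10% serum. One group of 3 received ailanthone (AIL), a quassinoid of the tree Ailanthus altissima, at 0.20 µM for 24 h, the dose that the labels give as its IC50. The control group of 3 received the solvent DMSO for the same 24 h. The labels describe the replicates as biological without naming separate cultures, so p-values measure the spread between these samples, which may be technical.

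A ribosome holds one copy of nearly every ribosomal protein, and a small surplus is degraded, so cells tend to make these proteins in step. Their mRNAs are short and abundant, and most begin with a C followed by an unbroken run of pyrimidines, the 5′ terminal oligopyrimidine (TOP) tract. Through this tract LARP1 and the mTOR pathway set how much of each mRNA is translated. Several quassinoids are known as inhibitors of protein synthesis, and translation was not measured here.

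The TOP tract is a shared sequence feature that the choice of members did not use, and the stretches below show the annotated starts of rows that the results turn on, with and without it. Each is 30 bases, 15 before and 15 from the start, read from the RefSeq promoter table (build GRCh38.p14) on the gene's own strand. Capitals mark the run of C and T that opens the transcript where it begins with C and has at least 5 bases. The first 5 had large increases and come from chr17:8383179-8383208 (minus strand), chr18:49492451-49492480 (minus), chr19:5690280-5690309 (plus), chr12:56041903-56041932 (plus) and chr6:33272060-33272089 (plus), in that order.
RPL26: aagcagcgtgtagttCTCTTCCCTTTTgcg
RPL17: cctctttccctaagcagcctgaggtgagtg
RPL36: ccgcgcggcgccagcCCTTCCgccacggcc
RPS26: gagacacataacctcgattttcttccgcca
RPS18: cgcgtcacttccgctCTCTCTTCCacagga
The next rows had small increases and belong to the lateral stalk of the large subunit or its base, from chr12:120201097-120201126 (minus), chr11:809952-809981 (plus) and chr9:127451392-127451421 (minus).
RPLP0: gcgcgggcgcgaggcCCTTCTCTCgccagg
RPLP2: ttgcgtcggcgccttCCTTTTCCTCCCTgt
RPL12: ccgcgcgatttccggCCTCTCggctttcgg
The last rows are 3 parent genes, each followed by its second copy. They lie at chr1:6199581-6199610 (minus), chr3:170870181-170870210 (minus), chrX:101390996-101391025 (plus), chr14:49620612-49620641 (minus), chr1:153990747-153990776 (plus) and chr15:63157463-63157492 (minus).
RPL22: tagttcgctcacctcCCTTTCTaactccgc
RPL22L1: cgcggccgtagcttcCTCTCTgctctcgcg
RPL36A: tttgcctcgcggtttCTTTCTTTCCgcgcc
RPL36AL: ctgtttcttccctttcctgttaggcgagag
RPS27: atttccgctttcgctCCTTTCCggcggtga
RPS27L: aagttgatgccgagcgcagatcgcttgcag
A tract of 12 bases opens RPL26, which had the largest increase of the rows shown here in the deposited scaling, and one of 13 bases opens RPLP2, which rose by little. RPL17 and RPS26, which also had large increases, have no such tract at the annotated start, nor have RPL36AL and RPS27L, whereas RPL22L1 has one of 6 bases. In RPL36AL a tract does begin within 5 bases of that start, unlike in RPL17, RPS26 and RPS27L. The starts are those of the annotation, and the starts used in Saos-2 cells were not measured.

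Over all members with an entry in that table, a C followed by at least 4 pyrimidines stood at an annotated start in 47 of 68 (69.1%). Among the standard rows it was 46 of 62 (74.2%), against 1404 of 27305 (5.14%) of all genes with an entry and 7.04% of the tested genes that are not members. Of the second copies, 1 of 5 had it, RPL22L1. Allowing the tract to begin within 5 bases of the annotated start brought the share to 85.5% of the standard rows and to 25.2% of all genes. Only the gene's own strand was searched, and a match describes the letters and does not show how the mRNA is used.

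Ribosomal protein mRNAs were higher under AIL as a group. The 86 rows summed to 56625, 56840.4 and 57152 CPM in the DMSO samples and to 70022, 67950 and 68441 CPM in the AIL samples. The lowest AIL sum thus lay well above the highest DMSO sum. The mean sum went from 56872 ± 265 to 68804 ± 1083 CPM (SD, n = 3), a ratio of 1.21. As a share of all listed CPM, the rows held 6.71 ± 0.0230% under DMSO and 7.97 ± 0.0523% under AIL. CPM are relative, so more ribosomal protein mRNA per cell and less of the other mRNA cannot be told apart here.

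Differences were tested gene by gene with limma on log2(CPM + 1) over 11069 genes, and a Benjamini-Hochberg adjusted p under 0.05 was a call. Of the 86 rows, 80 rose, where 28.2% of all tested genes were called higher, and 2 fell, where 25.9% were called lower (54.1% in either direction), but with quantile normalization 69 were higher and 5 lower. All 3 AIL samples lay above all 3 DMSO samples in 79 rows, where 30.9% of tested genes did so. They lay below in 2 rows, where 29.2% of tested genes did so. The median log2 difference over the 86 rows was 0.28 (quartiles 0.19 and 0.34), and over all tested genes it was 0.01. The increases were therefore modest in size and similar across most rows. With quantile normalization the median over the rows was 0.16, and with a trend over transcript length and abundance removed it was 0.15, with 66 of 85 rows higher and 4 lower.

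**Figure D1:**
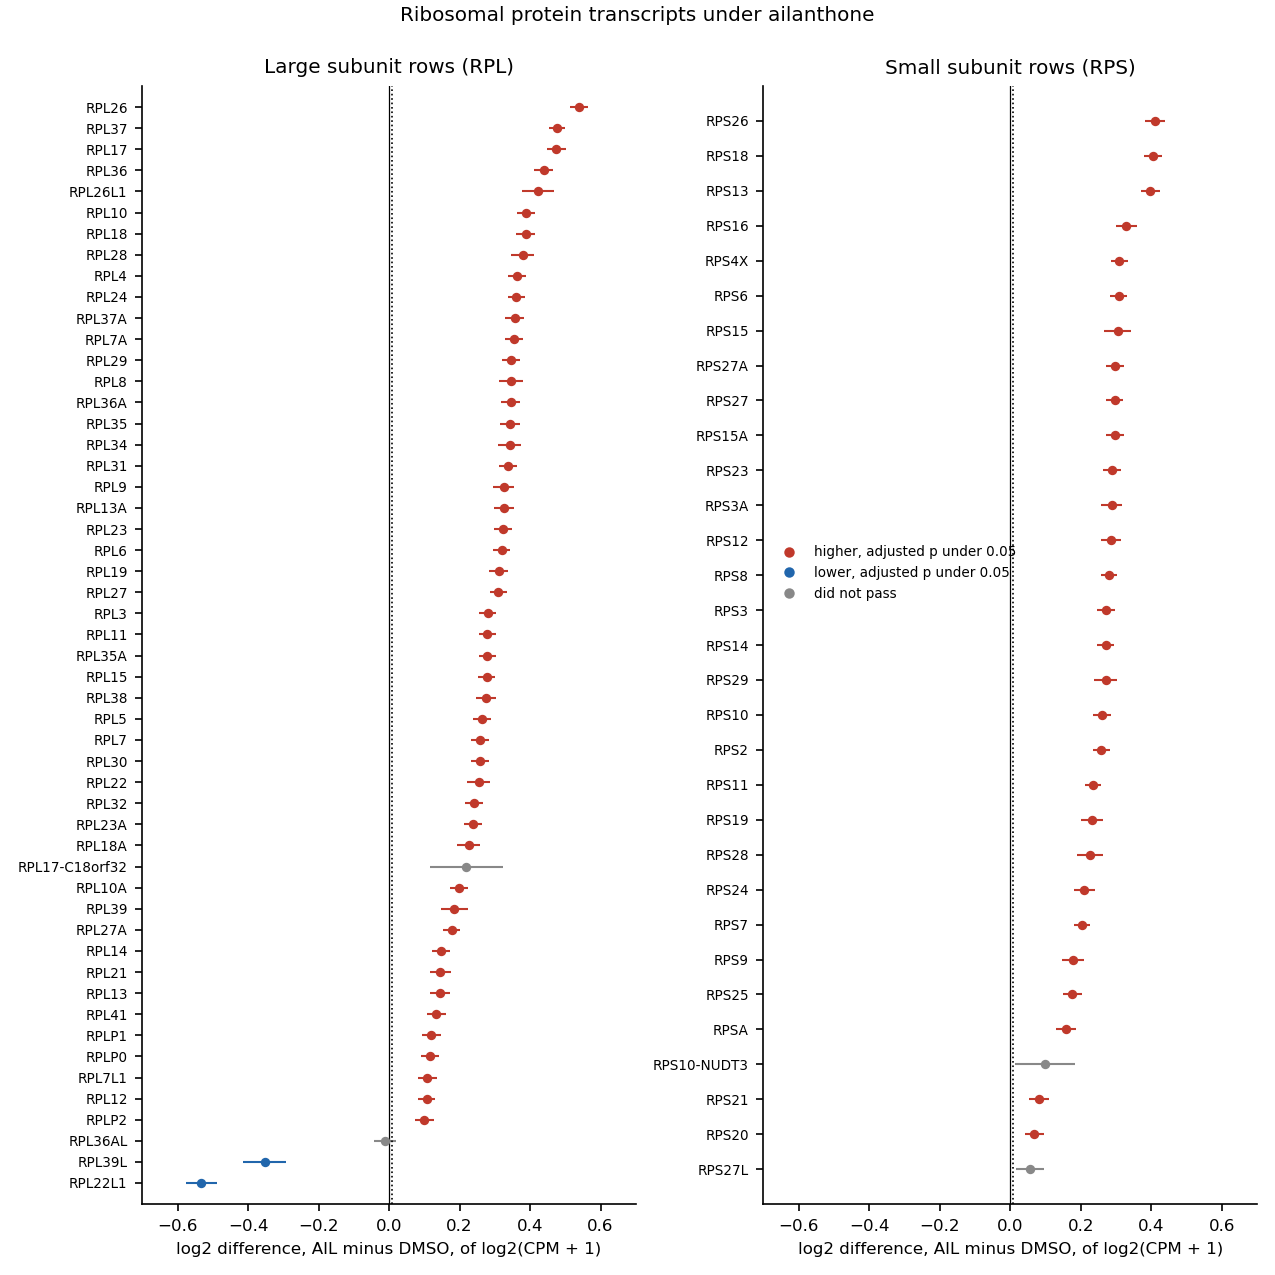
Log2 difference, AIL minus DMSO, of log2(CPM + 1) for each of the 52 RPL rows (left) and 31 of the RPS rows (right), with bars of 1 standard error from limma (3 samples a group). The solid line marks 0 and the dotted line the median of all tested genes. Most rows lie between 0.1 and 0.5, RPL36AL lies just below 0, and RPL22L1 and RPL39L lie far below it. With quantile normalization RPL12, RPL13, RPL27A, RPL41, RPLP0, RPS20 and RPSA also lie below 0, and RPL36AL above it.

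High abundance and short length were shared by most rows. The standard rows had a median of 737 CPM, against 34.2 CPM for all tested genes. Their annotated transcripts had a median length of 750.5 bases, against 2584 bases for tested genes with a transcript. Among the 742 tested genes with at least 200 CPM that are not members, 34.2% were called higher, with a median of -0.01. With transcripts of up to 1500 bases as well, 155 genes remained, 50.3% were called higher and their median was 0.07. The members' median of 0.28 was larger than either. The fit that removes the trend of length and abundance included the members, so it may also take away part of their own difference. The part that length and abundance have in the members' median was not tested.

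**Figure D2:**
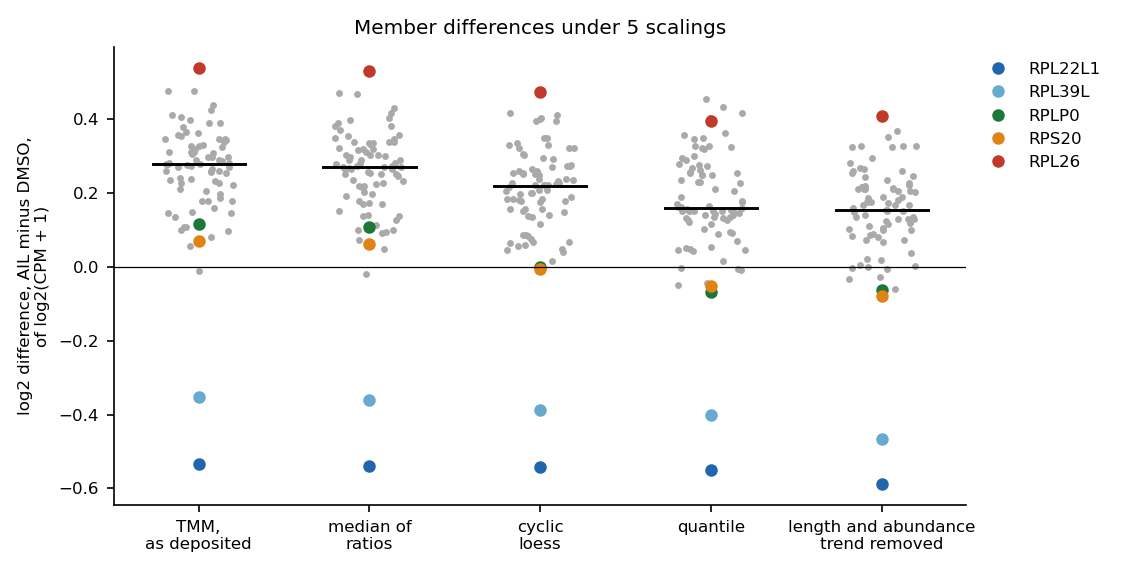
Log2 differences (AIL minus DMSO, of log2(CPM + 1)) of the 83 member rows reported here under 5 ways of scaling the samples. Black bars are medians over all members and 5 rows are coloured. The median goes from 0.28 as deposited to 0.27, 0.22, 0.16 and 0.15, RPL26 stays the highest or among the highest, RPL22L1 and RPL39L stay the lowest, and RPLP0 and RPS20 pass below 0 with loess, quantile and the length and abundance trend removed.

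The 2 subunits were close to each other. Their counts stand beside the 28.2% of all tested genes that were called higher and the 25.9% called lower. Of the 52 RPL rows, 48 rose and 2 fell, with a median of 0.28. Of the 34 RPS rows, 32 rose and 0 fell, with a median of 0.27, and the 2 others, RPS27L and RPS10-NUDT3, did not pass the limma test. Both medians went down together with other scalings, to 0.16 and 0.16 with quantile normalization and to 0.17 and 0.14 with the length and abundance trend removed. Among standard rows alone, all 46 RPL rose (median 0.30) and all 32 RPS rose (median 0.28), although 3 of these 78 rows were called lower with quantile normalization (RPL12, RPLP0 and RPS20) and 8 did not pass (RPL13, RPL21, RPL27A, RPL41, RPLP2, RPS24, RPS7 and RPSA). With the length and abundance trend removed, RPLP0 and RPS20 were called lower, and RPL12, RPL13, RPL21, RPL27A, RPL39, RPL41, RPLP1, RPLP2, RPS21, RPS24 and RPSA did not pass. With cyclic loess RPL12, RPL13, RPLP0, RPLP2 and RPS20 did not pass.

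The balance between the subunits was read as the ratio of summed RPL to summed RPS CPM within each sample, which a linear scaling of the sample cannot alter. The ratio was 1.688, 1.696 and 1.693 in the DMSO samples and 1.718, 1.723 and 1.706 in the AIL samples. The groups did not overlap, but the mean differed only between 1.69 and 1.72. This 1.36% difference was far smaller than the rise of both sums, 21.6% for RPL and 20.0% for RPS.

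**Figure D3:**
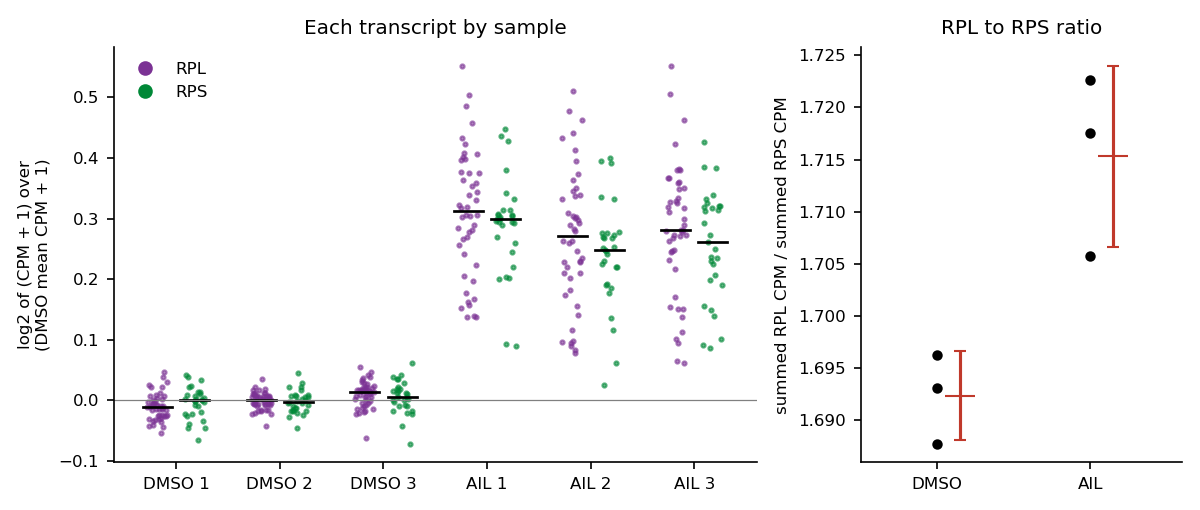
Left, log2 of (CPM + 1) over (DMSO mean CPM + 1) for each of the 75 standard rows reported here in each sample, RPL and RPS side by side, with black bars for medians. Right, the ratio of summed RPL to summed RPS CPM, with points for samples and red bars for mean ± SD (n = 3, axis not from 0). The AIL clouds lie above the DMSO clouds as deposited, and the ratio spans 1.688 to 1.696 under DMSO and 1.706 to 1.723 under AIL.

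Rows of proteins that are kept from bacteria to humans and rows of proteins that are not gave like values. All 15 of the conserved small-subunit rows rose (median 0.27), as did all 18 of the conserved large-subunit rows (median 0.30) and all 45 of the remaining standard rows (median 0.28), with the exceptions under other scalings that are listed with the 2 subunits above. Of the genes linked to Diamond-Blackfan anaemia, an inherited failure of red cell production, 10 of 10 rose (28.2% of all tested genes did), with a median of 0.27, and RPS7 and RPS24 did not pass with quantile normalization (0.042 and 0.046, limma adjusted p = 0.0810 and 0.178). RPS24 did not pass with the length and abundance trend removed either (limma adjusted p = 0.0504). RPS19, the gene most often altered in that disease, stood at 592, 589 and 578 CPM under DMSO and at 719.8, 699 and 650.2 CPM under AIL. It rose by 0.23 on the log2 scale (SE 0.0314, limma adjusted p = 8.21e-06).

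Of the large subunit, RPL26 rose most in the deposited scaling, whereas with quantile normalization it stood at 0.39, below RPL36, RPL28 and RPL26L1 (0.45, 0.42 and 0.40). Its protein sits near the exit of the tunnel through which new chains leave the ribosome. RPL26 stood at 675, 690.4 and 702 CPM in the DMSO samples and at 1010.2, 982 and 1011 CPM in the AIL samples. Every AIL value lay far above every DMSO value. The means were 689 ± 13.9 and 1001 ± 16.5 CPM (SD, n = 3), 45.2% higher under AIL, with a log2 difference of 0.54 (SE 0.0251, limma adjusted p = 3.11e-11). The same values, read as a share of the members' own CPM, were 1.21% under DMSO and 1.45% under AIL.

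RPL37 and RPL17 followed. RPL37, a zinc-binding protein of the large subunit, went from 845, 857 and 848 CPM to 1206, 1171 and 1172 CPM, a log2 difference of 0.48 (SE 0.0240, limma adjusted p = 7.34e-11). RPL17, which lies by the tunnel exit, went from 894, 899.6 and 936 CPM to 1274, 1228 and 1293 CPM (log2 difference 0.47, SE 0.0272, limma adjusted p = 3.17e-10). The groups were well apart in both. RPL36 went from 333, 343 and 340.2 CPM to 466, 472 and 441 CPM (0.44), and RPL10, which joins the large subunit late in its maturation, from 663 ± 10.7 to 868 ± 18.6 CPM (0.39). The 2 RPL rows with the highest mean CPM over all samples rose less than these rows in relative terms, but more than the RPL median of 0.28 in the deposited scaling. RPL4, whose protein lines the exit tunnel, went from 1777 ± 15.7 to 2287 ± 53.5 CPM (0.36), and RPL8 from 1640.3 ± 15.5 to 2087 ± 123 CPM (0.35). RPL8 stood at 0.151 with quantile normalization and at 0.158 with the length and abundance trend removed, below the RPL medians of those fits.

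Of the small subunit, RPS26, RPS18 and RPS13 had the largest increases among the rows described here. RPS26, at the channel through which mRNA leaves, went from 252, 265 and 263 CPM to 355, 343 and 339 CPM, a log2 difference of 0.41 (SE 0.0275, limma adjusted p = 2.07e-09). RPS18, in the head of the subunit, went from 972, 961 and 986 CPM to 1317, 1279.6 and 1271 CPM (0.41, SE 0.0247, limma adjusted p = 6.90e-10). RPS13 went from 557, 552 and 558 CPM to 748, 702 and 747 CPM (0.40). The AIL values of all 3 genes lay far above the DMSO values. RPS16 and RPS4X followed with 0.33 and 0.31. The abundant RPS2 went from 1524 ± 18.5 to 1824 ± 32.2 CPM (0.26), and RPS3A from 1099 ± 24.1 to 1342 ± 48.7 CPM (0.29).

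Members known also for roles outside the ribosome gave values within the range of the others. RPS6, the substrate of the S6 kinases, went from 654, 662 and 658 CPM to 829, 793 and 822 CPM (0.31, SE 0.0247, limma adjusted p = 1.86e-08). RPL5 and RPL11, which bind the 5S ribosomal RNA and can bind MDM2, rose by 0.26 and 0.28. RPL5 stood at 805, 794 and 819.7 CPM under DMSO and 981, 946 and 978 CPM under AIL, and RPL11 at 829, 847 and 855 CPM and 1040.2, 1010.1 and 1019.7 CPM. Both pairs of groups were clearly apart. RPS27A, made as a fusion with ubiquitin, went from 773, 758 and 776 CPM to 949.9, 913 and 973 CPM (0.30), and RPS3, of the mRNA entry channel, from 999 ± 15.9 to 1206 ± 29.8 CPM (0.27). RPSA, also known as a laminin receptor, went from 1372, 1321 and 1315 CPM to 1538, 1448 and 1487 CPM (0.16, limma adjusted p = 1.27e-04), but its difference was -0.0034 with quantile normalization and 0.0042 with the length and abundance trend removed, and passed in neither.

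At the low end stood the lateral stalk, which recruits the translation factors that hydrolyse GTP. It is built of RPLP0 with RPLP1 and RPLP2, and RPL12 binds beside it. RPLP0 stood at 1751, 1751 and 1728 CPM under DMSO and at 1937, 1863 and 1871 CPM under AIL. The groups did not overlap, and the difference of 0.12 (SE 0.0254, limma adjusted p = 8.91e-04) turned to -0.067 with quantile normalization and to -0.063 with the length and abundance trend removed, both called lower. RPLP1 went from 568, 579 and 567 CPM to 637, 630.2 and 596 CPM (0.12), and passed no longer with the length and abundance trend removed (0.0020, limma adjusted p = 0.948). RPLP2 went from 569.7, 548 and 546 CPM to 610.4, 594 and 579.9 CPM (0.10), and its call was lost with quantile, loess and trend removal (limma adjusted p = 0.0796, 0.0559 and 0.963). RPL12 stood at 833, 833 and 847 CPM under DMSO and 921, 892 and 894 CPM under AIL (0.11), and with quantile normalization it was called lower (-0.045). With cyclic loess neither RPLP0 nor RPL12 passed (limma adjusted p = 0.941 and 0.0872).

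Relative to the other members, the stalk took a smaller share. RPLP0, RPLP1 and RPLP2 together held 5.10, 5.06 and 4.97% of the members' CPM in the DMSO samples and 4.55, 4.54 and 4.45% in the AIL samples. RPL12 held a mean of 1.47% and 1.31%. The groups did not overlap in either share, and these shares do not depend on a linear scaling of the samples.

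RPS20 and RPS21 were the lowest of the called small-subunit rows. RPS20, of the subunit's head, stood at 956, 973 and 984 CPM under DMSO and 1033, 988 and 1034 CPM under AIL. Its difference of 0.07 (SE 0.0258, limma adjusted p = 0.0324) turned to -0.052 with quantile normalization and to -0.079 with the length and abundance trend removed. It did not pass with cyclic loess (limma adjusted p = 0.778), with no filter on low values (0.0604) or with no intensity trend (0.124). Without DMSO replicate 1, DMSO replicate 2, AIL replicate 1 or AIL replicate 3 it no longer passed either (limma adjusted p = 0.146, 0.0888, 0.0997 and 0.0702). RPS21 stood at 312, 318 and 336 CPM under DMSO and 344, 336 and 342 CPM under AIL (0.08, limma adjusted p = 0.0227, turning to -0.0048 with the length and abundance trend removed). One AIL value lay only just above the highest DMSO value, and the call was lost without DMSO replicate 1, DMSO replicate 2 or AIL replicate 1 (limma adjusted p = 0.148, 0.0942 and 0.0654) and with no intensity trend (limma adjusted p = 0.108).

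The second copies did not all rise. Of the 6, RPL26L1 and RPL7L1 rose, RPL22L1 and RPL39L fell, and RPL36AL and RPS27L did not pass the test, with a median of 0.02. These shares are near those of all tested genes (28.2% higher and 25.9% lower), and the values that follow describe single genes and pairs. RPL22L1, the second copy of RPL22, stood at 40.2, 39.0 and 42.4 CPM under DMSO and at 27.6, 26.7 and 28.7 CPM under AIL. All AIL values lay below all DMSO values, and the fall of 31.6% gave a log2 difference of -0.53 (SE 0.0439, limma adjusted p = 2.47e-08). Its parent RPL22 went the other way, from 424, 435 and 451 CPM to 509, 505 and 548 CPM (0.25, limma adjusted p = 3.30e-06). RPL39L, best known from the testis, went from 11.1, 11.6 and 12.0 CPM to 8.94, 9.04 and 8.55 CPM (-0.35, SE 0.0608, limma adjusted p = 1.02e-04). Its parent RPL39 went from 394, 401 and 421 CPM to 465, 428 and 492 CPM (0.19), a call that was lost with the length and abundance trend removed (limma adjusted p = 0.0610). Both falls were also called under every alternative run, the other scalings included.

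RPL36AL stood at 123, 132 and 131 CPM under DMSO and 127, 126 and 129 CPM under AIL, so the groups overlapped (-0.01, limma adjusted p = 0.757, turning to 0.016 with quantile normalization). Its parent RPL36A went from 336, 345 and 349 CPM to 436, 426 and 447 CPM (0.34). RPS27L stood at 35.9, 36.4 and 38.5 CPM under DMSO and 38.5, 38.0 and 38.6 CPM under AIL (0.05, limma adjusted p = 0.258). RPS27 went from 502 ± 7.63 to 616 ± 8.61 CPM (0.30). RPL7L1 rose by 0.11 (400.0 ± 9.54 to 431 ± 11.1 CPM) and RPL7 by 0.26. RPL26L1 rose by 0.42, from 26.9, 25.7 and 26.9 CPM to 36.5, 34.1 and 37.1 CPM, close to its parent RPL26.

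**Figure D4:**
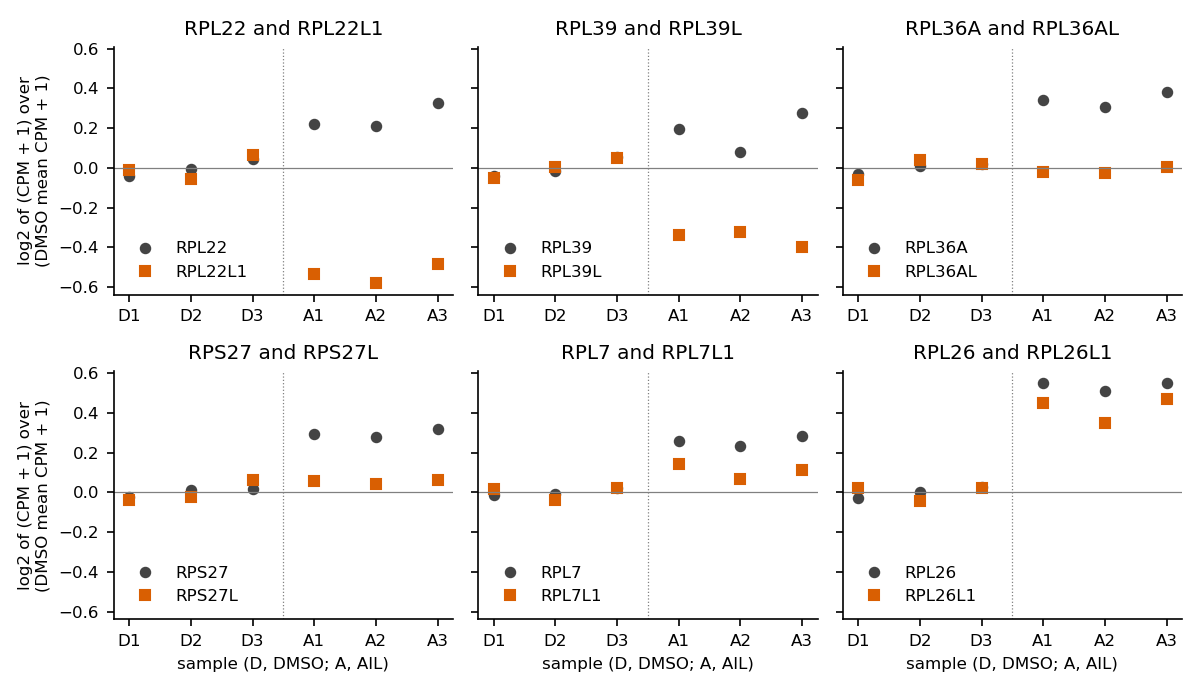
Log2 of (CPM + 1) over (DMSO mean CPM + 1) in each sample (D1 to D3, DMSO; A1 to A3, AIL) for 6 parent genes (circles) and their second copies (squares). RPL22L1 and RPL39L lie below 0 in all AIL samples, RPL36AL and RPS27L near 0, and RPL26L1 and RPL7L1 above 0, while every parent lies above 0 in all AIL samples.

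Each second copy had a lower share of its pair in every AIL sample than in any DMSO sample. The parents rose by 0.19 to 0.54 on the log2 scale, and the upper quartile over all tested genes was 0.14. Most tested genes set beside these parents would thus have a lower mean share too. The shares are therefore no separate result about the second copies. Per kilobase of coding sequence, RPL22L1 made up 9.04, 8.60 and 8.98% of its pair under DMSO and 5.39, 5.26 and 5.20% under AIL. RPL39L made up a mean of 2.77% and 1.89% of its pair, and RPL36AL 27.3% and 22.6%. In all 3 the AIL values lay below the DMSO values. The shares of RPS27L were 6.86% and 5.86%, those of RPL7L1 21.3% and 19.6%, and those of RPL26L1 3.71% and 3.46%, again without overlap between the groups. The level of a share depends on the length used, whereas its direction between the groups does not. RPL7L1 has 765 coding bases and a median annotated transcript length of 4122.5 bases, against 744 and 1204.5 for RPL7, so its share is raised. The exact two-sided permutation test gave p = 0.1 for each of the 6 pairs (0.1 after adjustment over them), the smallest value that 3 samples against 3 allow. On the log2 scale, second copy minus parent, the differences ranged from -0.79 for RPL22L1 to -0.12 for RPL26L1.

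Similar copies elsewhere in the genome could share reads with members, since these genes have many processed pseudogenes. In the GENCODE v29 transcripts, a median of 51.9% of the 50-base words of a member's coding sequence also occurred in a transcript of another gene (85 members with a transcript). The 13 standard rows with fewer than 10% shared words had a median log2 difference of 0.28, and the 64 with more had 0.28. RPL36, RPL8, RPS19, RPLP2, RPS21 and RPL11 are among the 13. RPL26 shared 82.1% of its words, and RPL17 and RPS26 shared 100%. Their reads could therefore be shared with other genes more than those of RPL36. The joined rows were low and did not pass the test. RPL17-C18orf32 stood at 3.60, 3.54 and 4.58 CPM under DMSO and 5.47, 3.98 and 4.71 CPM under AIL (0.22, limma adjusted p = 0.0804), a difference called without DMSO replicate 3 (0.32, limma adjusted p = 0.0203) or AIL replicate 2 (0.32, limma adjusted p = 0.0254). RPS10-NUDT3 stood at 9.09 ± 0.982 and 9.81 ± 1.19 CPM (0.10, limma adjusted p = 0.351).

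Levels per kilobase of coding sequence divide the reads of a gene by its coding length alone. They are therefore raised in rows with long untranslated parts and compare genes only roughly. In the DMSO samples the 77 standard rows with a coding sequence had a median of 1418 CPM per kilobase, 1468 for RPL and 1372 for RPS. They ranged from 413 for RPL28 to 11110 for RPL41, whose coding sequence is only 75 bases, so its value per kilobase counts reads that fall outside the coding sequence. No feature examined was strongly related to the size of the increase. Across the 77 or 78 standard rows, Pearson's r between the log2 difference and transcript length, coding length, 5′ untranslated length, number of exons, mean CPM, level per kilobase or shared words lay between -0.20 and 0.03, a description over genes measured in the same 6 libraries. The presence of a TOP tract made little difference to the median. The 46 standard rows with the tract at an annotated start had a median of 0.28, and the 16 without it had 0.31. Some of the 16 have a tract close by. With the tract allowed to begin within 5 bases of the start, 53 rows had it (median 0.28) and 9 did not (median 0.31).

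Ribosomal proteins that the symbol rule leaves out rose as well. FAU, the precursor of a small-subunit protein, rose by 0.22. GNB2L1, the scaffold of the small subunit, rose by 0.14, a difference that turned to -0.0079 with quantile normalization and did not pass with cyclic loess (0.037). Of 19 tested mRNAs known for a TOP tract that do not encode ribosomal proteins, 13 rose and 3 fell, with a median of 0.24, beside the same 28.2% and 25.9% of all tested genes. The elongation factor EEF2 went from 1573 to 2362 CPM (0.58), and the initiation factors EIF3L, EIF3F and EIF4B rose by 0.39, 0.35 and 0.32. EEF1B2 and NAP1L1 fell by 0.17 and 0.14 on the log2 scale.

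Genes that act on ribosomal proteins or on TOP mRNAs included rows called higher and rows called lower. Of 15 tested kinases and regulators, 3 rose and 7 fell, where 28.2% of all tested genes were called higher and 25.9% lower. RPTOR, the mTORC1 subunit that binds substrates, rose by 0.49 and LARP1, which binds the TOP tract, by 0.12. MTOR fell by 0.19, the S6 kinase gene RPS6KB1 by 0.18, RPS6KA3 by 0.36 and MYC by 0.14 on the log2 scale. MDM2 was not called (0.04, limma adjusted p = 0.238). Of 7 chaperones or partners of single ribosomal proteins, 3 rose, namely TSR2 (partner of RPS26, 0.33), GRWD1 (partner of RPL3, 0.24) and PDCD2L (0.38). HEATR3, of the import of RPL5, fell by 0.17, and BCCIP, PDCD2 and RPS19BP1 did not pass (0.05, 0.03 and 0.02).

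Proteins of the mitochondrial ribosome are also nuclear-encoded, and 57 of 75 rose and 4 fell, with a median of 0.20, where 28.2% of all tested genes were called higher and 25.9% lower. MRPL45 and MRPS18B had among the smallest p-values, at 0.68 and 0.62. Of the 66 with a promoter entry, 9.09% had a TOP tract at an annotated start. The 13 mRNAs encoded in mitochondrial DNA went the other way, with 10 lower and 0 higher, and their sum went from 4288 ± 84.2 to 3672 ± 64.5 CPM (SD, n = 3). They are a common sign of RNA and cell quality, and they fell in the same libraries in which the members rose. Their part in the members' increase was not tested.

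Depth, from the step that 1 read makes in the low values, was 32560000 to 35840000 reads under DMSO and 35910000 to 38040000 under AIL on the scaled size. The listed genes held 84.4 to 85.0% of the scaled library under DMSO and 85.7 to 87.2% under AIL. Both values carry each sample's TMM factor, which could not be taken out. Raw depth and the share of raw reads in listed genes therefore cannot be compared between the groups. The part of either in the members' increase was not tested. Of 8 markers of the osteoblast lineage, 3 could be read, and they summed to 4.57 to 5.16 CPM under DMSO and 4.71 to 5.29 CPM under AIL, nearly all of it RUNX2, with SPP1 and BGLAP near 0. Markers of other cell types were 2 of 6, at 626 to 644 CPM and 700.4 to 745 CPM. These sums were almost all KRT18, an epithelial keratin that many cell lines express, which rose by 0.19, and the endothelial CDH5 was near 0. The other markers were not analysed here, so the lineage of these cells rests on the labels.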

How the data were processed

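For 13439 genes the authors deposited CPM values in 1 table, scaled by TMM and printed to 2 decimals, per the file name and values. RSEM and edgeR 3.8.5 are named in the submitters' processing notes, without a role. Neither the aligner nor the genome build, the gene annotation or the strand setting is given in the sources used here, so reads of near-identical, overlapping or antisense genes may be counted for either gene. TruSeq libraries were made from 1 µg of RNA (TRIzol, RIN over 8.0), per the labels' protocols. All per-sample columns were used, and columns were matched to samples by name.

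TMM scaling takes most genes as unaltered. In all libraries 99.1 to 100% of the values under 2 CPM lay on the step of 1 read, which was 0.0263 to 0.0307 CPM. The values could not be turned back into whole reads closely enough for a count test, so tests stayed on the log scale.

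The 11069 genes that averaged 1 CPM or more were tested with limma (3.58.1, R 4.3.3). The two-sided moderated test ran on log2(CPM + 1), used an intensity trend and had no covariates. Benjamini-Hochberg adjustment ran over all of them. Each difference is the AIL mean minus the DMSO mean on that scale, so changes of low genes are understated. The test was tried on simulated data. Levels per kilobase and shared 50-base words used GENCODE v29 coding sequences. Starts came from the RefSeq promoter table of GRCh38.p14, with matches by symbol.

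The members and gene lists were chosen with earlier results of these data known, so no list was tested as a set. Named members were those not called or called lower, the 6 highest and 6 lowest differences and the 3 highest levels of each subunit, the rows near the minimum, the parents and second copies, the stalk, RPL5, RPL11, RPS27A, RPS6, RPSA, RPS19 and RPS3. Outside the members, all genes of short lists and the 4 smallest p-values of longer lists were eligible. RPL13, RPL21, RPL27A, RPL28, RPL41, RPS7, RPS24, EEF1B2 and NAP1L1 were named after their values were seen. Some genes that this rule takes, and 1 alternative about them that was chosen after seeing the data, are not reported here by name but count in the totals, so rankings hold only for the rows described.

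To check for pairing, deviations of samples from their group's mean were correlated. They gave 0.159, 0.133 and 0.129 between samples of the same number, above 0.1 in each pair. Pairs of unlike number gave -0.179 to 0.0210. The numbers were therefore taken as a possible pairing of the samples, from the data alone. The main fit and the permutation test did not use it, and a replicate block entered as an alternative. The others were pseudocounts of 0.1 and 5, a minimum mean of 5 CPM or none, median-of-ratios, quantile and cyclic loess scaling, removal of a trend over transcript length and abundance, no intensity trend, and each sample left out in turn.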

Additional observations from a re-analysis of the deposited data

How the results depend on the processing

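The count of members called higher was 80 with the paired fit (replicate block) and the count called lower 2, and the block changed no call named here. Over the other alternatives 66 to 81 members were higher, and 77 to 81 with 1 sample left out. Members called lower were 5 with quantile normalization, 4 with the length and abundance trend removed and 2 elsewhere. The median log2 difference was 0.16 with quantile normalization, 0.22 with cyclic loess and 0.15 with the trend removed, and 0.27 to 0.29 with 1 sample left out. For RPL rows it was 0.16, 0.22 and 0.17, and for RPS rows 0.16, 0.21 and 0.14. With 1 sample left out the RPS median ranged from 0.25 (without AIL replicate 1) to 0.28. The cause was not tested.

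Signs turned with quantile normalization for GNB2L1 (-0.0079), RPL12 (-0.045), RPL13 (-0.049), RPL27A (-0.0067), RPL41 (-0.0092), RPLP0 (-0.067), RPS20 (-0.052), RPSA (-0.0034) and RPL36AL (0.016). With cyclic loess they turned for RPLP0 (-0.0019), RPS20 (-0.0074) and RPL36AL (0.015). With the trend removed they turned for RPL12 (-0.033), RPL41 (-0.0053), RPLP0 (-0.063), RPLP2 (-0.0015), RPS20 (-0.079), RPS21 (-0.0048), RPS27L (-0.027), RPS19BP1 (-0.025) and MDM2 (-0.00267). With each sample left out in turn, RPL36AL ranged from -0.043 to 0.0073 (above 0 without DMSO replicate 2), RPS19BP1 from -0.00623 to 0.055 (below 0 without DMSO replicate 3 or AIL replicate 2), PDCD2 from -0.000367 to 0.040 (below 0 without AIL replicate 3) and RPS6KA1 from -0.072 to 0.019 (above 0 without DMSO replicate 1). With 3 samples a group, small increases were hard to separate from the spread, and the calls of RPS20 and RPS21 were lost when single samples were left out.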
